A study of Mus musculus with 41 samples.

Results

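At week 6 (W6) of SOX9 induction, 4024 of 20579 SOX9 peaks (19.6%) were overlapped by no SOX9 peak of any other time point. These W6-only sites were selected by peak presence alone: a W6 peak counted when not 1 bp of it was covered by a SOX9 peak of D0 (before induction), W1, W2 or W12. They were mapped by CUT&RUN (CNR), in which an antibody-tethered nuclease releases the DNA around a bound protein, in epidermal stem cells (EpdSCs) from the back skin of male CD1 mice. All skin samples carried K14rtTA and TRE-myc-Sox9, so that doxycycline (DOX) switched on MYC-tagged SOX9 in the *Krt14* expressing skin epithelium, and the D0 mice carried both transgenes without DOX. The D0 skin was taken at postnatal day 21, W1 at day 28, W2 at day 35 and W6 at day 63. The W12 skin had been grafted onto Nude mice, so weeks of DOX, age and grafting cannot be told apart. EpdSCs were sorted as CD49f-high, CD34-negative and Ly6A-high after removal of endothelial, immune, melanocyte and fibroblast lineages, and peak lists hold no expression with which to check that identity. MLL3/4 was mapped in the same way at D0, W1 and W2. MLL3/4 and MYC-tag lists also came from cultured back skin keratinocytes, with K14rtTA and 1 of 3 transgenes. TRE-myc-Sox9 gave the full protein, with and without DOX (WT-SOX9). TRE-myc-Sox9noTA lacked the transactivation domain (dTA-SOX9), and TRE-myc-Sox9noHMG the HMG domain that contacts DNA (dHMG-SOX9), both with DOX.

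Each time point had 2 samples, which the authors pooled before calling peaks, so there is 1 list per group, the spread between mice is unknown and no test between time points was possible. Every interval given is a 95% interval over peaks (Wilson for a share, Newcombe for a difference of shares) and covers counting error only. The 5 SOX9 lists held 792 (D0), 15651 (W1), 18657 (W2), 20579 (W6) and 9745 peaks (W12). Peak maxima moved in steps of 42 RPKM at W6, 57.6 at W1, 76.4 at W2 and 46 at W12, which would be 1 fragment each in libraries of 23.8, 17.4, 13.1 and 21.8 M fragments if every base was 1 bin. The same limit of 1800 RPKM was applied to all 5 lists.

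SOX9 is a transcription factor of the SRY-related HMG-box family that binds the minor groove and can engage its site on nucleosomes. It sustains hair follicle stem cells, is low in the interfollicular epidermis, and is active in basal cell carcinoma. MLL3 and MLL4 are the histone methyltransferases that place H3K4 monomethylation on enhancers. AP1 is the dimer of FOS and JUN proteins that occupies many epidermal enhancers, and RUNX factors are transcription factors with roles in hair follicle stem cells.

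The sequences given here reach 50 bp to each side of the maximum of 7 W6-only peaks, shown because they hold the words on which the sites are compared further on. They were taken from 117 of the 122 W6-only peaks with a maximum above 3600 RPKM (the others were on a chromosome from which no sequence is given), for each word the 2 with the highest total signal. Capitals mark the SOX word (CCATTGT or CCTTTGT, and also GCATTGT or GCTTTGT), the AP1 word (TGAGTCA or TGACTCA) or the RUNX word (AACCACA), each read on both strands. Sequence is from GRCm38.p6 (mm10), plus strand, and each site carries the name of the nearest protein-coding gene.
*Eif3h* site, chr15:51681432-51681532: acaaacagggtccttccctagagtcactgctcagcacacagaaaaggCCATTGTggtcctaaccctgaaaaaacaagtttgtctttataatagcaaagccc
*Trps1* site, chr15:50621841-50621941: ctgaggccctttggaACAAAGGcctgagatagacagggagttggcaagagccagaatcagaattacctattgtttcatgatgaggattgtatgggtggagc
*Plcg2* site, chr8:117485475-117485575: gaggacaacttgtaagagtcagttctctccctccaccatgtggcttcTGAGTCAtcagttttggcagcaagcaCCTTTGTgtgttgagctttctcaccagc
*Lgalsl* site, chr11:20863395-20863495: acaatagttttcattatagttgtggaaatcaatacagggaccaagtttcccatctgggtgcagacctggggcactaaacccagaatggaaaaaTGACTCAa
*Ptger4* site, chr15:5495295-5495395: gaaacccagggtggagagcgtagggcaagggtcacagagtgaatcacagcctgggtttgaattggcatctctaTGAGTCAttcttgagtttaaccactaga
*Zfp974* site, chr7:27932837-27932937: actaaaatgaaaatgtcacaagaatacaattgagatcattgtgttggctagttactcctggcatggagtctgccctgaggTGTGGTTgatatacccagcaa
*Ccdc34* site, chr2:110189977-110190077: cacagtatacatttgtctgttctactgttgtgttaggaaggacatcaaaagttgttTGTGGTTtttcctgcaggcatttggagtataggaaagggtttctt

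At the *Eif3h* site, 104548 bp from the gene, the SOX word was centred on the base of the maximum itself. The *Trps1* site, 32149 bp from a gene for a GATA-type repressor, had its SOX word 32 bp away and was on an MLL3/4 peak at W2. The *Plcg2* site was the single one of these 117 peaks with both a SOX and an AP1 word, the AP1 word on the maximum and the SOX word 26 bp from it. The *Ptger4* site lay at the start of another transcript, 250793 bp from that gene. In the AP1 pair the word lay 46 bp (*Lgalsl*) and 26 bp (*Ptger4*) from the maximum, and both sites were on skin MLL3/4 peaks. In the RUNX pair it lay 33 bp (*Zfp974*) and 9 bp (*Ccdc34*) away, and neither site was on an MLL3/4 peak in skin. A match of letters is a description of the window and not evidence of a bound factor.

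W6-only sites were the weak end of the W6 list. Their maximum had a median of 2141 RPKM (5th to 95th percentile 1805 to 3316, highest 6716), against 2980 RPKM for the other 16555 W6 peaks, and the median W6-only maximum rested on 51 fragments (range 43 to 160). They were also narrower, with a median of 488 bp against 632 bp. Of W6 peaks with a maximum of 1800 to 2400 RPKM, 37.3% were W6-only, against 14.9% at 2400 to 3600 RPKM and 2.08% above 3600 RPKM. Of 10 equal groups of the W6 list by total signal, the weakest held 1095 W6-only peaks and the strongest 2. These values describe the choice of sites, since the same W6 list and the same signal limit in the other lists decided membership.

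**Figure D1:**
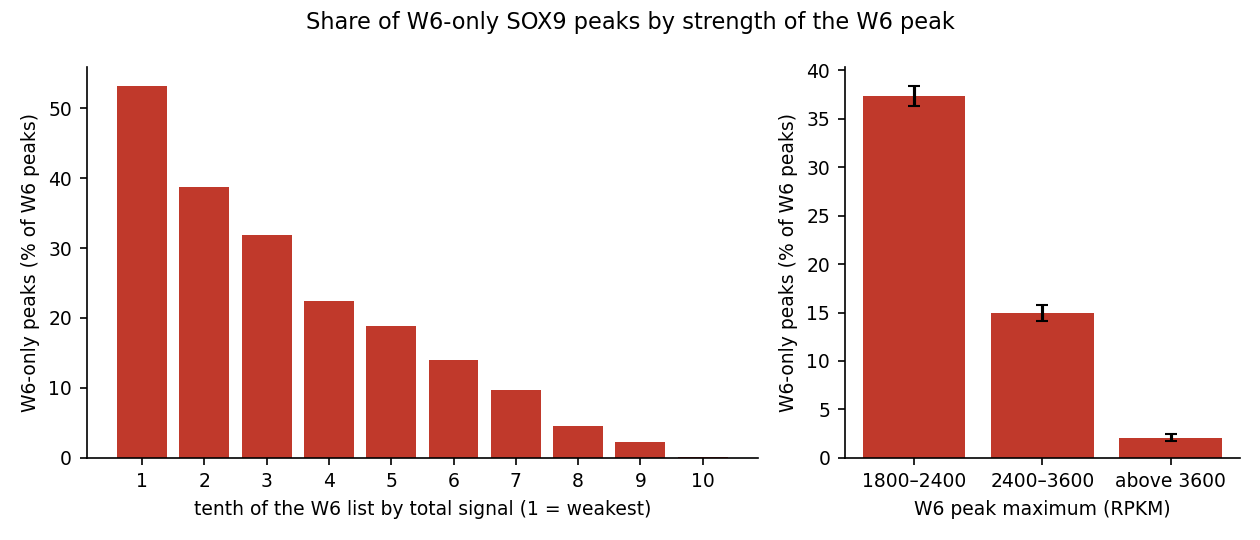
Share of W6 SOX9 peaks that were seen at W6 only (y axes, percent of W6 peaks), by 10 equal groups of the W6 list ranked by total signal (left, 1 is the weakest) and by peak maximum in RPKM (right, error bars are 95% Wilson intervals over peaks). The share falls from 53.2% in the weakest group to 0.0972% in the strongest.

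Few sites sat on the border of the choice. The median gap from a W6-only peak to the nearest SOX9 peak of another time point was 9915 bp, 27 sites (0.671%) had one less than 100 bp away and 1465 (36.4%) had one less than 5000 bp away. The members closest to the border had gaps of 0, 6 and 15 bp, and the W6 peaks just outside it were overlapped by 23, 73 and 91 bp. By time point, 29.4% of W6-only peaks had a W2 SOX9 peak within 5 kb, 23.1% a W1 peak, 19.2% a W12 peak and 1.39% a D0 peak.

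Most W6-only sites lacked MLL3/4 in skin at every time measured. Of 4024 sites, 2306 (57.3%, 95% interval 55.8 to 58.8) were on no MLL3/4 peak at D0, W1 or W2, against 17.9% of the other W6 peaks, a difference of 39.4 percentage points (37.8 to 41.1). They were not the barest class. Late sustained peaks, seen at W6 and W12 only (1978 peaks), lacked MLL3/4 at 76.8%, and peaks seen at W12 only (1293 peaks) at 88.2%. Persistent peaks, seen at W1, W2, W6 and W12 (4563 peaks), lacked it at 7.12%. MLL3/4 was not mapped at W6 or W12 in the lists analysed here.

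At D0, 1109 W6-only sites (27.6%, 26.2 to 29) were already on an MLL3/4 peak, before transgenic SOX9 was induced. All W6 peaks together stood at 52.8%, the late sustained peaks at 12.6%, the W12-only peaks at 7.19%, and the same W6-only peaks moved by 10 kb to either side at 3.96%. The share was 22.3% at W1 and 24.6% at W2, against 61.3% and 61.9% over all W6 peaks. Against the other W6 peaks the difference was -31.3 points at D0 (-32.9 to -29.8), -48.5 at W1 (-49.9 to -47) and -46.3 at W2 (-47.8 to -44.8). The other W6 peaks went from 58.9% at D0 to 71% at W2. For the 633 W6-only sites in the upper 50% of the W6 list by total signal the order turned, with 25.6% at D0 (22.3 to 29.1) and 32.9% at W2 (29.3 to 36.6). Of the 122 sites with maxima above 3600 RPKM, 21 were on MLL3/4 at D0 (17.2%, 11.5 to 24.9) and 23 at W2 (18.9%, 12.9 to 26.7), with overlapping intervals. The MLL3/4 lists themselves shrank from 37072 peaks at D0 to 31539 at W1 and 29281 at W2. Their upper 50% by total signal covered 13.4% of W6-only sites at D0 and 8.47% at W2. The W1 and W2 shares are not free of the choice of sites, since any site with SOX9 in those weeks was set aside.

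Of the 1109 W6-only sites with MLL3/4 at D0, 358 (32.3%, 29.6 to 35.1) were on MLL3/4 at D0 only, against 4.87% of the other W6 peaks with D0 MLL3/4 and 1.03% of the persistent ones. The difference from the late sustained peaks (33.7%) was -1.45 points with an interval of -8.1 to 4.8. Persistent peaks have SOX9 at W1 and W2 by definition, as do many of the other W6 peaks. Counted over MLL3/4 peaks, 37.8% of all 37072 D0 peaks had no peak at either W1 or W2 (37.3 to 38.3), against 33.1% of the 1165 that touched a W6-only site (30.5 to 35.9). At W1 alone the shares without a peak were 48.5% and 52.9% (50 to 55.7), and at W2 alone 48.7% and 48.2%. Of the 19971 D0 MLL3/4 peaks touching no SOX9 peak of any time point, 61.5% had no peak at either W1 or W2 (60.8 to 62.2). Another 363 W6-only sites kept MLL3/4 at D0, W1 and W2 (9.02%, against 40.1% of all W6 peaks). MLL3/4 was absent at D0 and present at both W1 and W2 in 164 sites (4.08%, against 12.6% of all W6 peaks), at W2 only in 249 (6.19% against 4.59%) and at W1 only in 196 (4.87% against 4.42%).

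The gap in MLL3/4 between W6-only and other W6 peaks was present at each strength. Between 1800 and 2400 RPKM, 29.2% of W6-only peaks and 64% of the others were on D0 MLL3/4 peaks (difference -34.8 points, -37 to -32.7). The difference was -36.3 points at 2400 to 3600 RPKM and -35.5 points above 3600 RPKM, where 17.2% of 122 W6-only peaks were on MLL3/4. When each of the 4 DOX lists was shortened to its 9745 strongest peaks and the choice made anew, 1072 sites were W6-only. Of these, 549 were among the 4024 and 523 were not, the latter having a SOX9 peak of another time point in the full lists. The W2 share was 33% in the 549 and 68.6% in the 523, and that of all 1072 was -31.6 points (-34.7 to -28.5) from the other W6 peaks of the shortened list.

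**Figure D2:**
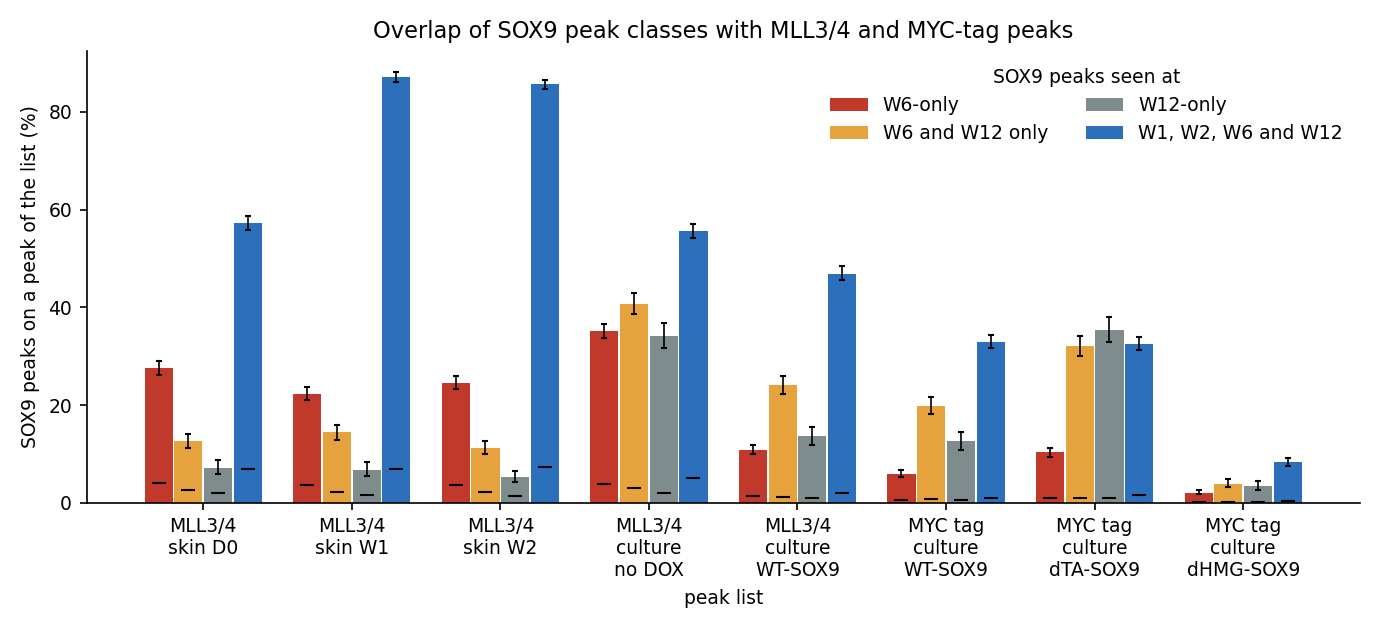
Share of SOX9 peaks (y axis, percent) overlapped by at least 1 bp by a peak of each MLL3/4 or MYC-tag list (x axis), for 4 classes of SOX9 peaks by the time points at which they were seen. Error bars are 95% Wilson intervals over peaks and black dashes mark the same peaks moved by 10 kb. W6-only peaks lie above the late sustained and W12-only peaks on all 3 skin MLL3/4 lists and below them on the MYC-tag lists of WT-SOX9 and dTA-SOX9.

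In uninduced cultured keratinocytes the order of the classes was another one. MLL3/4 without DOX covered 1414 W6-only sites (35.1%, 33.7 to 36.6), against 49.4% of all W6 peaks and 40.7% of late sustained peaks (difference from the latter -5.56 points, -8.18 to -2.95). The W12-only peaks stood at 34.2% (difference 0.955 points, -2.05 to 3.89). Of W6-only sites, 673 were on MLL3/4 both in skin at D0 and in culture without DOX (16.7%, against 37.2% of all W6 peaks), 436 in skin alone (10.8% against 15.5%) and 741 in culture alone (18.4% against 12.2%). With WT-SOX9 induced in culture, MLL3/4 covered 10.9% of W6-only sites and 25.5% of all W6 peaks. That list held 10543 peaks, against 33975 without DOX. With dTA-SOX9 the same 2 shares were 25.6% and 38%, and with dHMG-SOX9 24.1% and 38.6%, in lists of 25948 and 23301 peaks.

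The MYC tag gives a second view of SOX9 binding, with another antibody and in other cells. WT-SOX9 bound 240 W6-only sites in culture (5.96%, 5.27 to 6.74), against 15.1% of all W6 peaks, 19.9% of late sustained peaks and 12.6% of W12-only peaks. The background of the same peaks moved by 10 kb was 0.609%. The list without DOX covered 1.37% of W6-only sites and 5.02% of all W6 peaks, and dHMG-SOX9 covered 2.11% and 6.35%. The list of replicate 1 without DOX, which also holds peaks under 1800 RPKM, covered 4.27% of W6-only sites and 10.8% of all W6 peaks. When limited to maxima above 1800 RPKM it covered 1.29% of W6-only sites. dTA-SOX9 was on 416 W6-only sites (10.3%, 9.43 to 11.3), against 20.1% of all W6 peaks and 32% of late sustained peaks. Against the late sustained class the difference was -14 points for WT-SOX9 (-15.9 to -12.1) and -21.7 points for dTA-SOX9 (-23.9 to -19.4). The strength of the W6 peak moved with this result: in WT-SOX9 the difference from other W6 peaks was -2.03 points (-3.06 to -0.953) at 1800 to 2400 RPKM and -20 points (-24.8 to -12.9) above 3600 RPKM. Of the 122 W6-only peaks above 3600 RPKM, 12.3% were on WT-SOX9 MYC-tag peaks. No MLL3/4 or MYC-tag list of the 11 pooled ones touched 1438 W6-only sites (35.7%), against 8.55% of the other W6 peaks, 30.5% of late sustained and 37.5% of W12-only peaks.

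AP1 was the word most raised in W6-only windows. It lay within 50 bp of the maximum in 1072 sites (26.6%, 25.3 to 28), against 1.85% of windows of the same width 1 kb away, 14.4 times as often. Over all W6 peaks the share was 23.5%. The SOX word was present in 769 sites (19.1%, 17.9 to 20.4), against 6.42% of the control windows and 18.8% of all W6 peaks. The RUNX word was rare, in 152 sites (3.78%, 3.23 to 4.41), against 2.15% of control windows and 2.77% of all W6 peaks. TEAD words (GGAATG), read by the effectors of Hippo signalling, were in 7.6% of windows, 5.43% of controls and 7.19% of all W6 peaks. GATA words (AGATAAC or AGATAAG) were in 1.94%, 2.52% and 2.03%, and the consensus of CTCF, which shapes chromatin loops, was in 0.249%, 0.311% and 0.175%. When all 7-base words were ranked by the rise over control windows, the AP1 word came first.

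For AP1, W6-only sites lay between persistent and late sustained peaks, and for SOX they lay under both. The AP1 share was 3.17 points above that of the persistent peaks (1.33 to 5.01) and -11.7 points from that of the late sustained peaks (-14.3 to -9.2), of which 38.4% held the word. The SOX share was -7.08 points from the persistent peaks (-8.83 to -5.31), of which 26.2% held it, and -4.35 points from the late sustained ones (-6.6 to -2.15). For RUNX, W6-only and late sustained peaks (4.45%) differed by -0.672 points (-1.81 to 0.368), while the W6-only share was 1.08 points above the persistent peaks (0.334 to 1.85) and 1.25 points above the other W6 peaks (0.652 to 1.93). Against the other W6 peaks the AP1 share was 3.86 points higher (2.37 to 5.39) and the SOX share 0.439 points higher (-0.889 to 1.81). The differences depended on strength and list size. Between 1800 and 2400 RPKM they were 9.24 points for AP1 (7.31 to 11.2) and 4.92 points for SOX (3.25 to 6.63), and above 3600 RPKM they were 0.893 (-6.39 to 9.51) and -5.33 (-11.8 to 2.83). With the choice made anew on DOX lists of equal size they were -1.3 (-3.84 to 1.42) and -3.89 (-6.21 to -1.35). For RUNX the difference was 1.63 points at 1800 to 2400 RPKM (0.806 to 2.52), but the intervals included 0 at 2400 to 3600 RPKM (0.683, -0.283 to 1.95), above 3600 RPKM (0.499, -1.55 to 5.36) and with lists of equal size (0.743, -0.277 to 2.07).

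**Figure D3:**
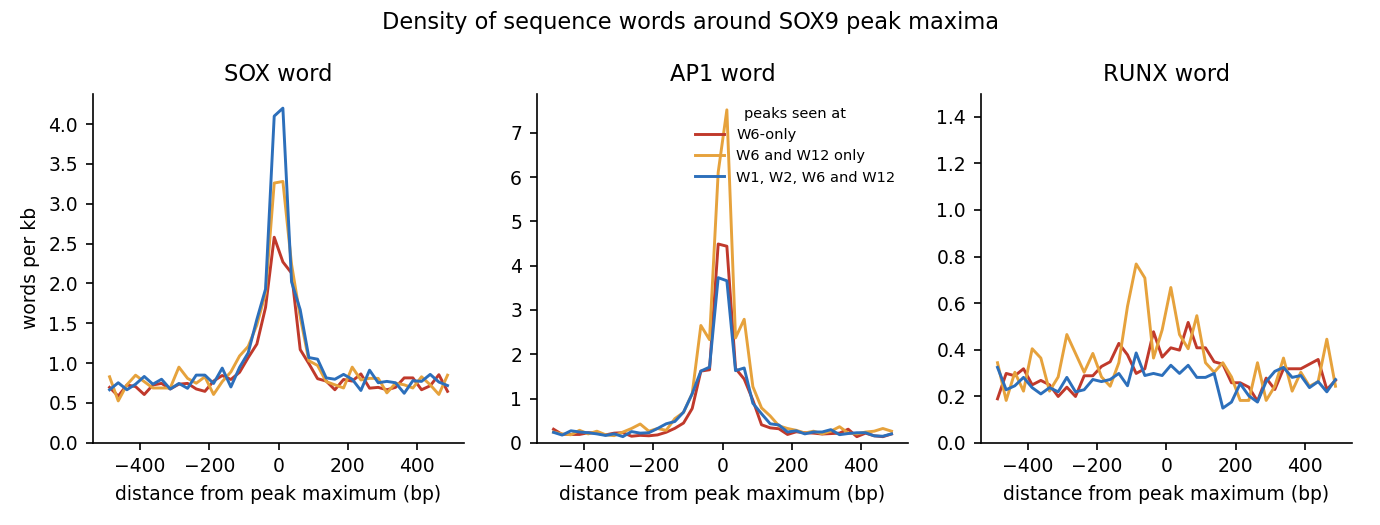
Number of SOX, AP1 and RUNX words per kb (y axes, scales differ between panels) by distance from the peak maximum (x axes, bp, bins of 25 bp), for W6-only, late sustained (W6 and W12 only) and persistent (W1, W2, W6 and W12) SOX9 peaks. In the bin just before the maximum, W6-only peaks held 4.49 AP1 words and 2.58 SOX words per kb.

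SOX and AP1 words seldom shared a window, in W6-only sites as in all W6 peaks. Both lay in 108 W6-only windows (2.68%), where independent words would meet in 5.09%, and over all W6 peaks in 2.66%, against 4.41% if independent. Of W6-only windows, 661 held a SOX word alone and 964 an AP1 word alone. Neither word was in 2291 windows (56.9%). Words were not used to choose the sites. Shares by word on skin MLL3/4 at W1, at W2 or at no time are still tied to the choice, since any site with SOX9 in those weeks was set aside.

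W6-only sites with a SOX word and no AP1 word were largely outside earlier MLL3/4. Of these 661 sites, 79.1% (75.9 to 82) were on no skin MLL3/4 peak, 10.4% were on one at D0 and 15.1% on one in culture without DOX. Of the 964 sites with an AP1 word and no SOX word, 49.8% (46.6 to 52.9) were on no skin MLL3/4 peak, 36.8% were on one at D0 and 51.3% on one in culture without DOX. For the 2291 sites with neither word these shares were 53.8%, 28.9% and 33.8%. At W2, 28.2% of the sites with neither word and 25.2% of the AP1 sites were on MLL3/4. The differences, SOX sites minus AP1 sites, were -26.4 points at D0 (-30.1 to -22.5), -13.3 points at W2 (-16.9 to -9.48) and -36.2 points in uninduced culture (-40.3 to -31.9). Under WT-SOX9 in culture the order turned: 13.8% of SOX sites and 5.81% of AP1 sites were on MLL3/4 (7.96 points, 5.03 to 11.1).

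The form of SOX9 separated them again. WT-SOX9 carried the MYC tag to 12.9% of SOX sites and 1.24% of AP1 sites (11.6 points, 9.1 to 14.4). dTA-SOX9 was on 5.75% of SOX sites and 13.8% of AP1 sites (-8.05 points, -10.8 to -5.16), and dHMG-SOX9 was on 0.605% and 2.7%. The share at promoters was close, 11.5% and 12.6% (-1.05 points, -4.2 to 2.24). This split was not peculiar to W6-only sites. Among the other W6 peaks the same differences were -33.3 points for D0 MLL3/4, 20.8 points for WT-SOX9 and -17.9 points for dTA-SOX9, and among late sustained peaks -17.6, 22.5 and -23.8 points.

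**Figure D4:**
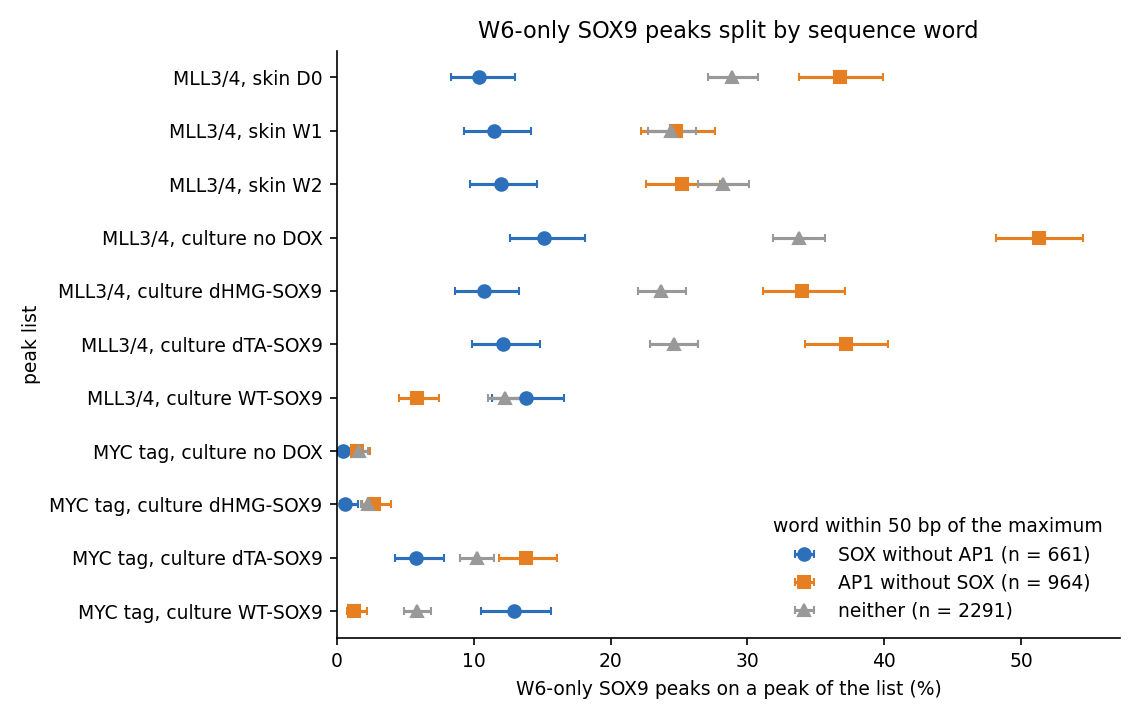
Share of W6-only SOX9 peaks (x axis, percent) on each MLL3/4 and MYC-tag list (y axis), for sites with a SOX word and no AP1 word, an AP1 word and no SOX word, or neither within 50 bp of the maximum. Points are shares and bars 95% Wilson intervals over peaks. AP1 sites lie to the right of SOX sites on the skin and uninduced MLL3/4 lists and to the left of them on both lists of WT-SOX9 with DOX.

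Divided the other way, the 1718 W6-only sites on skin MLL3/4 held a SOX word in 10.2% and an AP1 word in 30.4%. The 2306 sites without it held them in 25.7% and 23.9%, so that the differences (without minus with) were 15.5 points for SOX (13.2 to 17.7) and -6.53 points for AP1 (-9.32 to -3.76). WT-SOX9 bound 8.2% of the sites without skin MLL3/4 in culture and 2.97% of those with it. The SOX word also rose with distance from SOX9 peaks of other time points. Of the 705 W6-only peaks at least 50 kb from any SOX9 peak of another time point, 31.1% were on skin MLL3/4 and 23% held a SOX word, against 53.4% and 16.2% of the 526 peaks with a gap under 1 kb (differences, near minus far, 22.4 points, 16.8 to 27.7, and -6.82 points, -11.2 to -2.32). For AP1 the same difference was -1.2 points (-6.02 to 3.73).

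W6-only sites were mainly distal. Promoters, taken as 1 kb to each side of any annotated transcription start, held 665 of them (16.5%, 15.4 to 17.7), against 22.6% of all W6 peaks. A further 42.2% lay in introns, 38.3% between genes and 2.96% in exons. The promoter share was -7.52 points from the other W6 peaks (-8.81 to -6.17) and 9.5 points above the late sustained peaks (7.85 to 11.1), of which 7.03% were at promoters. With the choice made anew on DOX lists of equal size the difference from the other W6 peaks was -1.75 points (-4.02 to 0.734). The median distance to the start of a protein-coding gene was 19687 bp, against 15300 bp for the other W6 peaks and 29904 bp for the late sustained ones. Promoter sites were on skin MLL3/4 in 63.2%, intronic sites in 39.1% and intergenic sites in 37.9%. Windows lying mostly in repeats made up 3.55% of W6-only sites and 19.2% of their control windows.

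W6-only peaks were spread thinly over the genome. The median distance between neighbouring W6-only peaks was 183840 bp. At least 1 lay inside or within 50 kb of 4980 of 21911 protein-coding genes (22.7%), and this is the background for the gene lists that follow. Genes differ in how many SOX9 peaks they have, so the share of a list's W6 peaks that were W6-only is given too, against 17.7% summed over all protein-coding genes.

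The EGF receptor and its ligands, which drive keratinocyte growth, had W6-only peaks at 7 of 11 genes, and 20 of the 71 W6 peaks counted at these genes (28.2%) were W6-only. Neighbouring genes share peaks, and 18 distinct W6-only peaks stood behind the 20. The 71 is likewise summed over genes and was not reduced to distinct peaks. The neuregulin gene *Nrg1* (chr8:31814551-32884029), which encodes a ligand of ERBB3 and ERBB4, had 6 W6-only peaks among 18, all in introns, with maxima of 1805 to 2812 RPKM. At *Areg*, for amphiregulin (chr5:91139599-91148432), 3 of 7 W6 peaks were W6-only, with maxima of 2182.82, 3022.36 and 2308.75 RPKM. They lay 192, 2799 and 422 bp from the nearest SOX9 peak of another time point. All 3 *Areg* peaks held a SOX word and none was on skin MLL3/4. At *Egfr* itself there were 3 of 10, with maxima of 2350.72, 2014.91 and 1972.93 RPKM, of which 2 held an AP1 word and were on skin MLL3/4. *Tgfa*, another EGF receptor ligand, also had 3, of 11 W6 peaks.

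The TGF-beta and BMP pathway had W6-only peaks at 10 of 20 genes, and they made up 25.4% of its 67 W6 peaks. *Smad3*, the transducer of TGF-beta signals, had 3 of 10, and *Tgfb1*, *Tgfb3* and the receptor gene *Tgfbr2* had 2 each. *Bmp6*, a ligand of quiescent hair follicle stem cells, had 3 of 5 W6 peaks in the W6-only class, with maxima of 1972.93 to 2056.88 RPKM, and 2 of them were on skin MLL3/4. Surface and secreted markers of hair follicle stem cells had W6-only peaks at 9 of 16 genes (22.8% of 57 W6 peaks). Their transcription factors had them at 9 of 15 genes, but at 16.9% of 83 W6 peaks. There *Nfib*, a chromatin regulator of these stem cells, led with 6 of 17, of which 3 were on skin MLL3/4.

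Lists of the interfollicular epidermis were close to the 17.7% of all genes in their share of W6 peaks that were W6-only. Epidermal transcription factors had W6-only peaks at 12 of 18 genes (18.9% of 111 W6 peaks). *Prdm1*, which encodes the differentiation repressor BLIMP1 (chr10:44437177-44528501), had 5 of 11, against 3 SOX9 peaks at W1, 4 at W2 and 3 at W12 in the same interval. The gene was named for its count of W6-only peaks, so the higher count at W6 follows in part from the choice. Keratin genes had them at 7 of 14 genes, with 19.6% of 92 W6 peaks when peaks were summed over genes. Type I and type II keratins lie in clusters and share peaks, and 9 distinct W6-only peaks were involved. Near the stress keratin gene *Krt16*, 4 of 16 W6 peaks were W6-only, with maxima of 3777.95, 3610.04, 3148.29 and 2014.91 RPKM, and 3 of them held an AP1 word. *Krt5* and *Krt6a* shared 3 of 10.

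The RUNX genes and their cofactor *Cbfb* had W6-only peaks at 3 of 4 genes, at 16.7% of 30 W6 peaks. Both *Runx3* peaks (maxima 2098.86 and 2224.79 RPKM) held SOX and AP1 words together. They lay 5544 and 496 bp from the nearest SOX9 peak of another time point. Both *Runx2* peaks (2644.57 and 2980.38 RPKM) held an AP1 word. *Runx1* had 1 W6-only peak of 14, at 1930.95 RPKM, and 12 SOX9 peaks at W1. W6-only peaks were 2 of 4 W6 peaks at *Runx3* and 2 of 10 at *Runx2*, too few to compare the 3 genes. Genes for FOS, JUN and related AP1 proteins had W6-only peaks at 8 of 15 genes (15.4% of 65 W6 peaks), with 2 each at *Fosb* and *Maf*.

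Also close to the share of all genes were the Hedgehog pathway (6 of 16 genes, 17.5% of 40 W6 peaks), the WNT pathway (6 of 20, 17.8% of 45) and angiogenesis factors (7 of 18, 17.9% of 39). Lower shares were found for other lists. Integrins, laminins and basement membrane collagens had 7 of 19 genes but 10.2% of 108 W6 peaks, cell cycle drivers 3 of 18 and 7.89% of 38, and the NF-kB pathway 2 of 13 and 5.8% of 69. Genes of the epithelial-mesenchymal transition had 3 of 16 and 13.2% of 38. One of them was *Zeb2*, a repressor of epithelial genes, where the 2 intronic W6 peaks (3064.34 and 2602.59 RPKM) were both W6-only, both held a SOX word and were the only SOX9 peaks of any time point within 50 kb. Of markers of other cells of skin, 2 of 11 immune, 1 of 7 endothelial, 1 of 8 melanocyte, 0 of 8 fibroblast and 3 of 7 sebaceous gland genes had a W6-only peak. Their W6 peaks numbered 15, 15, 15, 5 and 16, too few to set against the background.

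**Figure D5:**
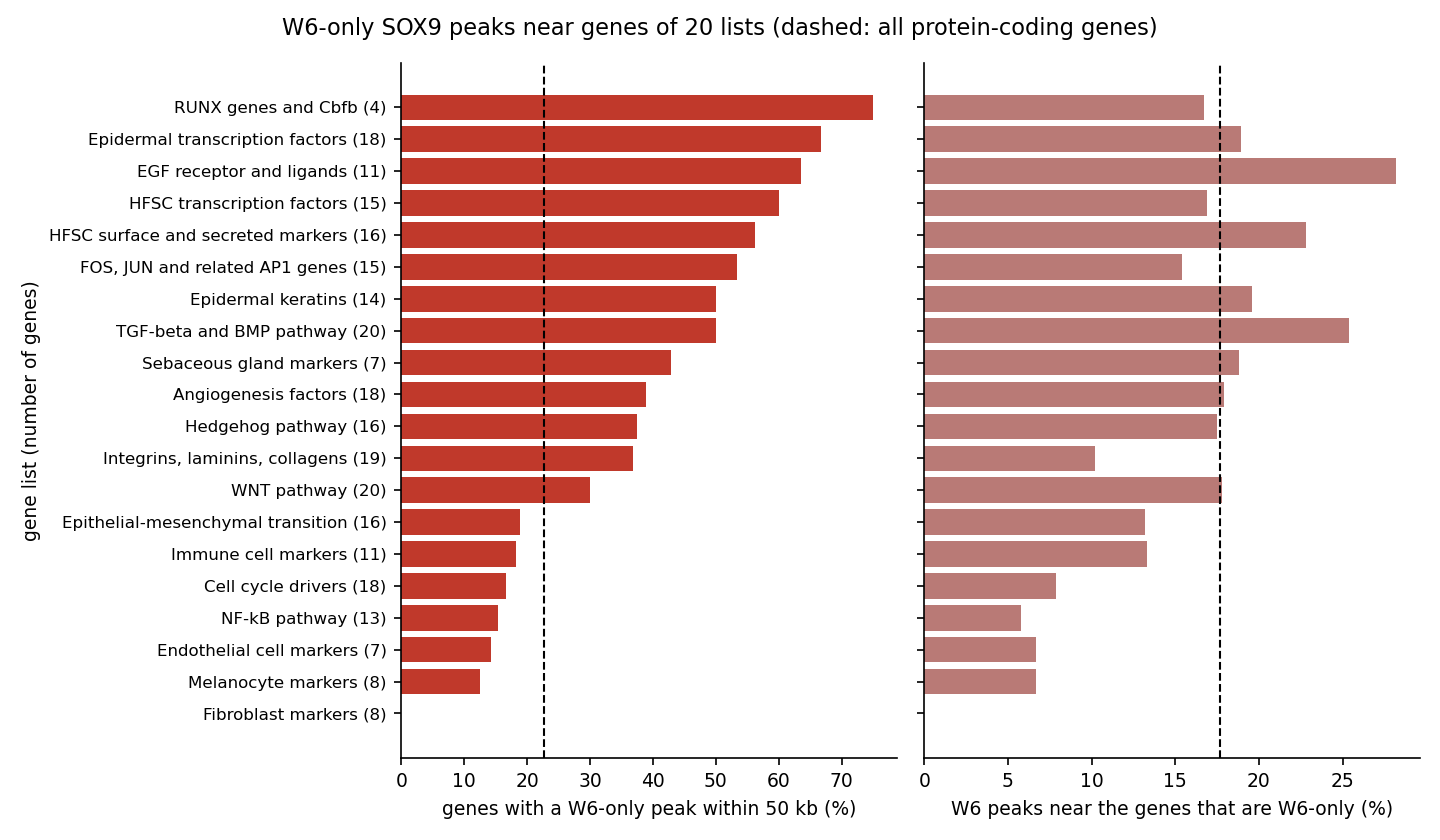
For 20 gene lists (y axis, number of genes in brackets), the share of genes with a W6-only peak inside the gene or within 50 kb (left, percent) and the share of the W6 SOX9 peaks at those genes that were W6-only (right, percent). Dashed lines give all protein-coding genes, 22.7% and 17.7%. Among these 20 lists the EGF receptor list has the highest share on the right, 28.2%.

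The loci the study follows hold too few W6 peaks each to set against the 17.7% of all genes. *Trp63*, for the master factor of stratified epithelium, had 1 of 14 W6 peaks (2056.88 RPKM, with a SOX word), *Gata3* had 1 of 4 (1972.93 RPKM, on MLL3/4 at D0, W1 and W2) and *Krt5* 3 of 10. *Ctnnb1* had 0 of 6, *Vim* 0 of 1, and *Sox9* had no W6 peak at all within 50 kb.

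The genes with the most W6-only peaks were *Fgfr2* and *Fggy* (12 each), *Gm20388* (11), *Atxn1* (10) and *Etv6* (8). The annotated spans of *Fgfr2* (2961 kb) and *Gm20388* (4435 kb) cover many other genes, so their counts say little of those loci. *Fggy*, a carbohydrate kinase gene of 369 kb, had 12 W6-only peaks among 22 at W6, against 8 SOX9 peaks at W1, 10 at W2 and 8 at W12. *Etv6* (chr6:134035700-134270158), an ETS-family repressor gene, had 8 among 18, against 6, 10 and 6. Both genes were named for their count of W6-only peaks, so higher counts at W6 follow in part from the choice. The lists also differ in size. In *Etv6* 4 W6-only peaks lay between chr6:134231377-134259165, among them the broad peak chr6:134256359-134257997, which had a maximum of 3274.22 RPKM with both a SOX and a RUNX word and lay 40161 bp from the nearest SOX9 peak of another time point.

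The 10 W6-only peaks of highest total signal were broad, which the ranking favours, since total signal is summed over the bases of a peak. They were 1042 to 2529 bp wide, with maxima of 2518.63 to 4113.77 RPKM, and ranked 712 to 2542 in the whole W6 list. The first was an intronic peak of *Hrh1*, the histamine H1 receptor gene (chr6:114423217-114425745, 2529 bp, maximum 2980.38 RPKM), which was on MLL3/4 at D0 only and 1787 bp from a SOX9 peak of another time point. The next lay 744390 bp from *Myc* (chr15:62734765-62736421, 2518.63 RPKM, with an AP1 word). Others lay 2491 bp from *Klk6*, a kallikrein protease gene of the epidermis, in *Samd12*, at the promoter of *Shf*, near *Eif3h*, in *Etv6*, in *Fggy*, 226880 bp from *Bcl11a* and in *Nfatc2*, a gene for a calcium-responsive transcription factor. Of the 10, 6 were on no skin MLL3/4 peak.

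The 5 highest maxima beyond those 10 belonged to peaks of 461 to 1233 bp. The highest, in an intron of *4930469K13Rik* (6716.36 RPKM, 160 fragments), held neither a SOX, AP1 nor RUNX word and was on none of the 11 MLL3/4 and MYC-tag lists. The next, in *Ptprg* (5373.09 RPKM), had 72.3% of its window in annotated repeats. The peak in *Cald1*, for the actin-binding protein caldesmon (chr6:34623998-34624956, 5163.2 RPKM), lay 98603 bp from the nearest SOX9 peak of another time point and was on MLL3/4 at W2 only in skin, on all 4 cultured MLL3/4 lists and on the dTA-SOX9 MYC-tag list. The other peaks lay 9441 bp from *Actbl2* (5289.13 RPKM) and 32149 bp from *Trps1* (5247.15 RPKM), the SOX-word site shown above.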

How the data were processed

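Of the 41 samples, 32 stood behind 18 peak lists, and 9 samples (CNR for ARID1a, BRG1 or JUN) were not analysed here. Per the submitters' processing notes, Bowtie2 2.2.9, SAMtools 1.3.1, deepTools 3.1.2 and Picard were used. The authors aligned reads to mm10, kept fragments of at most 120 bp, pooled replicates (2 lists are of replicate 1 alone) and called peaks with SEACR (stringent, 0.01). The deposited maximum of a SOX9 or MYC-tag peak is in RPKM, kept by the authors above 1800 in pooled lists. The deposited total signal is coverage summed over the bases of a peak, and in the 7 pooled MLL3/4 lists coverage is unscaled. For MLL3/4 in WT-SOX9 cultures given DOX, 2 samples share a description as replicate 2, so which samples stand behind that list is unsure. Depth is stated in no list, and the fragments behind an RPKM value follow from the step between maxima.

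Analysis used Python 3.11.15, pandas 2.3.3, numpy 2.4.6 and pysam 0.24.0, and plotted with matplotlib 3.10.9. Peaks were shared when they overlapped by at least 1 bp. The background moved the same peaks by 10 kb. Words were counted on both strands up to 50 bp from the middle of the maximum, with control windows 1 kb to each side. Genes are from GENCODE vM21 and loci reach 50 kb beyond a gene. Mitochondrial peaks were left out, and no sequence is given from chromosome 18. The sites, the 20 gene lists, the words and the comparisons were chosen with earlier results of these data known. Named were the 10 members of highest total signal, the 5 of highest maximum besides, the 5 genes with most members, 7 loci of the study and up to 4 genes per list. Equal list sizes and the 500 bp limit were applied to the differences between classes after the data were seen. Functions were tested on simulated data.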

Additional observations from a re-analysis of the deposited data

How the results depend on the processing

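Of the 4024 W6-only sites, 122 had a W6 maximum above 3600 and 633 were in the upper 50% of the W6 list. DOX lists of equal size gave 1072 sites, of which 549 were among the 4024. In that order the share on D0 MLL3/4 peaks was 17.2%, 25.6% and 37.4%, on W2 MLL3/4 peaks 18.9%, 32.9% and 50.4%, and on cultured WT-SOX9 peaks 12.3%, 7.9% and 6.81%. SOX words were in 21.3% above 3600 and 17.4% with equal lists, AP1 words in 19.1% of the upper 50% and 21.8% with equal lists, and promoters held 8.2% above 3600 and 13.9% in the upper 50%. The upper 50% of the MLL3/4 lists covered 13.4% (D0) and 8.47% (W2). Windows of 100 bp to each side held SOX words in 27.5%, AP1 words in 36.9% and RUNX words in 7.5%, a shorter SOX word (CATTGT or CTTTGT) was in 31.1%, and promoters of 2.5 kb held 26.3%, all wider searches by construction. Differences from the other W6 peaks turned sign for SOX above 3600 (-5.33 points) and, with equal lists, for SOX (-3.89) and AP1 (-1.3), while at promoters -7.52 became -1.75 with equal lists, and the cause was not tested. An overlap of 50%, a gap of 500 bp and autosomes alone left the 7 shares within their intervals, over 4034, 3750 and 3965 sites. The lists of replicate 1 alone (without replicate 2) covered 38.3% of sites for cultured MLL3/4 without DOX and 4.27% for the MYC tag, against 35.1% and 1.37%. The MYC-tag list of replicate 1 also lacks the limit of 1800 RPKM, and with that limit, an alternative added after seeing the data, it covered 1.29%. No paired analysis was possible because each group has 1 pooled list and no test was made, and no replicate could be left out of a SOX9 list. With 43 fragments in the weakest W6 peak and 24 in the weakest W2 peak, SOX9 below the limit of 1800 RPKM at other time points was not detectable in these lists.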

Other observations

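Among W6-only windows, the NF-kB consensus was in 2.19% against 0.895% of control windows, in 1.9% of all W6 peaks, 1.64% of persistent, 1.21% of late sustained and 0.928% of W12-only windows. W6-only sites differed by 0.363 points from the other W6 peaks (-0.099 to 0.898), by 0.543 points from persistent peaks (-0.0366 to 1.14) and by 1.26 points from W12-only peaks (0.46 to 1.9). The AP1-like word TGACTAA or TTAGTCA was in 7.28% of W6-only windows and 1.16% of controls, and AACAATG or CATTGTT, which overlaps the SOX word, in 6.98% and 1.4%. By chromosome, the share of W6 peaks that were W6-only ran from 17.5% on chromosome 19 to 21.7% on chromosome 15 among autosomes, and 59 of 232 peaks (25.4%, 20.3 to 31.4) on the X chromosome were W6-only.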
